A study of Rattus norvegicus with 15 samples.

Results

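The nuclear genes of the mitochondrial respiratory chain were followed in the rat posterior cerebral artery. Members were genes with a probe set of their own whose platform symbol starts with Nduf, Uqcr, Cox4 to Cox8 or Atp5, or is Sdha, Sdhb, Sdhc, Sdhd or Cyc1. They came to 85 of the 10411 genes that have such a probe set. A further 7 probe sets pair one of these symbols with another gene, among them those of Ndufa10, Ndufs5, Uqcrb, Cox7a2, Atp5mc1 and Atp5mc2, and were left out. By complex, 34 belonged to complex I, 4 to complex II, 8 to complex III, 17 to complex IV and 15 to complex V. The other members were 5 complex I assembly factors (the Ndufaf genes), the ATP synthase inhibitor Atp5if1 and the pseudogene Cox6c-ps1. One probe set stood for each gene, that with the highest mean signal over the 15 arrays, so no measured group difference entered this choice of probe set. The members themselves were chosen with earlier results of these data known. Subunits encoded by the mitochondrial genome carry other symbols and were not in the set.

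The chain passes electrons from NADH (complex I) and succinate (complex II) through ubiquinone, complex III and cytochrome c to oxygen at complex IV. Complexes I, III and IV pump protons, and complex V, the ATP synthase, uses the return flow of protons to make ATP. Complex IV has some subunits with a widespread isoform and a second isoform of striated muscle or of lung, and vascular smooth muscle is known to draw much of its ATP for tone from oxidative metabolism.

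The study profiled the posterior cerebral artery on the ipsilateral side, a vessel that carries collateral flow when other feeding arteries are closed, with Affymetrix Rat230A arrays. All rats were Sprague Dawley, 7 weeks old and 300 to 350 g. In 3-vessel occlusion (3VO) both vertebral arteries were coagulated and the left common carotid artery was tied, and in sham surgery the same vessels were laid open but left untouched. Operated rats received isoflurane and buprenorphine and were examined after 24 h or 3 d, giving 4 groups, and the fifth group was intact rats taken at time 0, for which the labels describe no surgery or drugs before perfusion. In all groups the vessels were filled with latex at full dilatation by papaverine. Each array held RNA pooled from 8 rats, with 3 arrays per group. The design speaks of repeated hybridisation, so p-values measure only the spread between these arrays, which may be technical.

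All 12 smooth muscle markers of a fixed list were measured, with a summed signal of 275344 to 618421 per array. Neuron markers were present as well: 19 of a list of 20 were measured, and their sum ranged from 165860 to 467410 on intact arrays and from 89241 to 262470 on the others. The sum of 9 choroid plexus markers was 150245 to 581664, and intact array 2 (558881) and 3 d sham array 3 (581664) had the highest sums. The treatment text of 3 d sham array 1 describes the occlusion, against its title. The intact arrays bear the numbers 13 to 15 of 15, so array number overlaps with the intact state.

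None of the 85 members passed the test (adjusted p under 0.05 with limma over 15737 probe sets) in any of 9 comparisons between groups or in the test of any difference among the 5 groups. Of the 7 chain probe sets shared with another gene, which were not members, 1 passed in 3VO at 3 d against intact arteries and is described with complex I. All 85 members passed the filter on low signals, and 80 had a signal of 1000 or more on every array. The median within-group SD of the members was 0.16 on the log2 scale, against 0.33 over all probe sets tested. Ndufb5, Sdhc and Sdhd were the steadiest, with SDs of 0.086, 0.087 and 0.098, and 5 members had an SD above 0.5, namely Cox8b, Cox6a2, Ndufa4l2, Cox6c-ps1 and Cox6b2. The median half-width of a member's 95% interval was 0.31 in a comparison of 2 groups. These intervals rest on the spread between arrays and are not adjusted for the number of members.

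Occlusion against sham surgery was the main comparison. At 24 h, 47 members stood lower after 3VO and 38 higher, with a median log2 difference of -0.01, against -0.02 over all probe sets. Of the 85 members, 79 lay within 1.2-fold of sham. None passed, where 0.0508% of all probe sets did, and the smallest adjusted p was 0.505. At an unadjusted p under 0.05 there was 1 member lower and 1 higher, where the shares of all probe sets were 3.72% lower and 3.25% higher. For 70 members the unadjusted 95% interval lay within 1.5-fold in either direction. The sign of the median was not stable: it was 0.02, 0.03 and 0.04 without 3VO array 1, 3VO array 2 and sham array 1 at 24 h, and -0.06 without 3VO array 3. All 19 neuron markers stood higher (median 0.96) and all 12 smooth muscle markers lower (median -0.68) after 3VO than after sham surgery at 24 h, and when the neuron list entered as a covariate the median of the members was 0.02. All 13 macrophage markers stood higher (median 0.22) and 9 of 10 endothelial markers lower (median -0.22). Of the astrocyte markers 10 of 12 stood higher (median 0.48), and all 5 erythroid markers measured stood lower (median -0.40). Oligodendrocyte markers stood higher in 7 of 8 (median 0.22) and choroid plexus markers lower in 7 of 9 (median -0.35). With the choroid plexus list added to the neuron covariate the median of the members was 0.03. The parts of the smooth muscle, macrophage, endothelial, astrocyte, erythroid and oligodendrocyte differences were not tested.

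At 3 d, 64 members stood lower after 3VO than after sham surgery and 21 higher, and 73 lay within 1.2-fold. The median log2 difference was -0.09 (0.94-fold), against -0.01 over all probe sets, of which 51.5% stood lower. None of the members passed, as with all probe sets (0%), and the smallest adjusted p was 0.998, for Ndufs3. At an unadjusted p under 0.05 there were 5 members lower and 1 higher, against 2.36% lower and 2.37% higher of all probe sets. For 67 members the unadjusted 95% interval lay within 1.5-fold in either direction. The median was -0.08 without the 3 d sham array whose text describes the occlusion, -0.05 without 3 d sham array 3 and -0.03 without 3 d 3VO array 1. Of the neuron markers 17 of 19 stood higher (median 0.36) and of the smooth muscle markers 12 of 12 lower (median -0.38) in 3VO at 3 d. All 13 macrophage markers stood higher (median 0.54) and 9 of 10 endothelial markers lower (median -0.22). All 5 erythroid markers stood lower (median -0.71) and 7 of 12 astrocyte markers higher (median 0.07). Oligodendrocyte markers stood lower in 8 of 8 (median -0.32) and choroid plexus markers in 7 of 9 (median -0.48). With the neuron list as a covariate the median of the members was -0.08, and with the choroid plexus list added -0.07. The parts of the smooth muscle, macrophage, endothelial, erythroid, astrocyte and oligodendrocyte differences in the members' values were not tested. In limma's test of the difference between the 3VO effects at 3 d and 24 h, the median was -0.07, with 63 members negative and 22 positive. None passed, as with all probe sets (0%), and at an unadjusted p under 0.05 there were 2 negative and 1 positive, against 1.3% and 1.49% of all probe sets. That median was -0.02 without 3 d sham array 3, -0.03 without 3 d 3VO array 1 or 24 h 3VO array 3 and -0.12 without 3 d sham array 2.

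**Figure D1:**
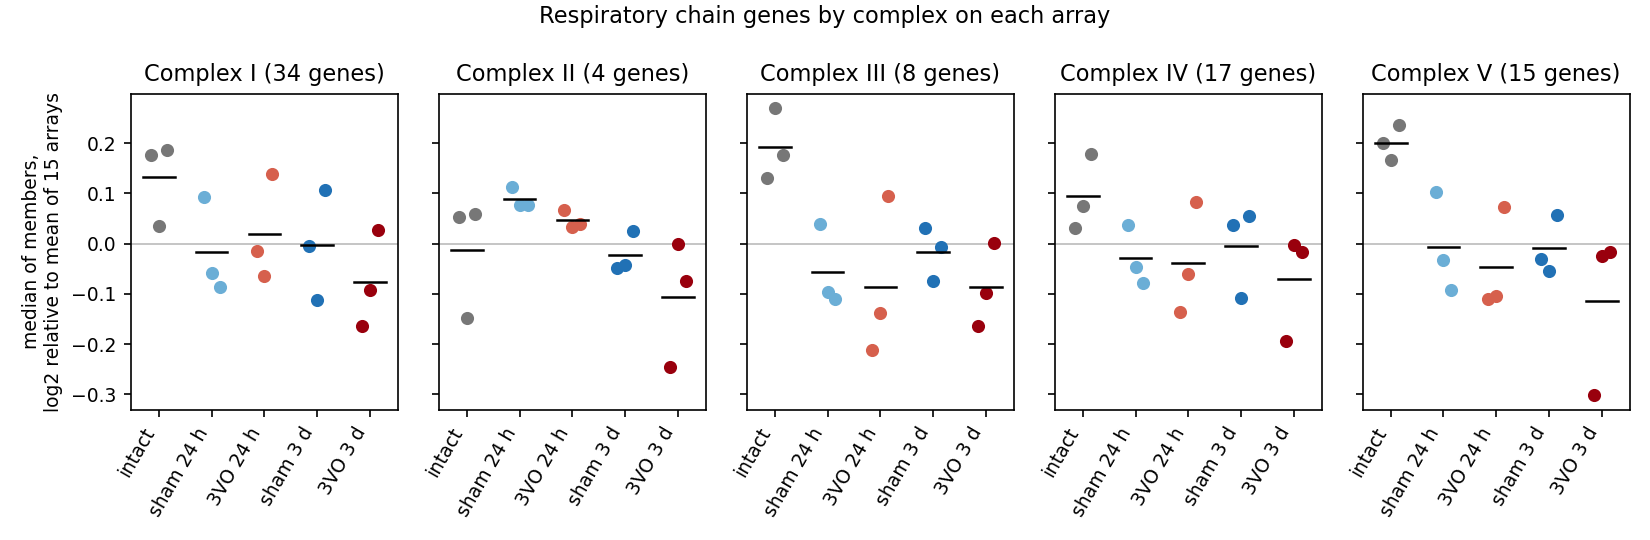
Median over the members of each complex on each array, as log2 relative to each gene's mean over the 15 arrays (vertical axis), for 5 groups of 3 arrays. Points are arrays and black lines the mean of 3 arrays. The 3 intact arrays of complex V (0.17 to 0.24) lie above all 12 arrays of operated rats, whose highest value is 0.10.

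Against intact arteries most members stood lower in every operated group. At 24 h after sham surgery 69 stood lower and 16 higher (median -0.13), and at 3 d 64 and 21 (median -0.13). At 24 h after 3VO the counts were 67 and 18 (median -0.13). At 3 d after 3VO they were 76 and 9, and the median was -0.23, a fold of 0.853. Over all probe sets the median was 0.04, 0.08, 0.00 and 0.07 in the same order, and 41.2% to 49.4% stood lower. The 4 comparisons share the 3 intact arrays.

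None of these differences passed for a single member. The smallest adjusted p-values of limma were 0.135 for Ndufs6 at 24 h after sham surgery and 0.175 for Cox7a1 at 3 d. They were 0.312 for Uqcrc1 at 24 h after 3VO and 0.107 for Ndufs3 at 3 d. Of all probe sets, 0% passed in either sham comparison, 0.184% at 24 h after 3VO and 0.222% at 3 d. At an unadjusted p under 0.05, 9 members were lower and 1 higher in sham at 24 h, against 7.02% and 8.01% of all probe sets. In sham at 3 d there were 15 lower and 2 higher, against 5.55% and 8.65%. At 24 h after 3VO there were 7 lower and 0 higher, against 3.98% and 5.98%. At 3 d after 3VO there were 22 lower and 2 higher, against 4.59% and 8.32%. In that comparison 28 members (32.9%) had all 3 arrays below all 3 intact arrays, where 5.11% of all probe sets did. Cox4i2, Cox5a and Cox6b2 (3.53%) had all 3 above, where 10.3% did. The members are brighter and vary less within groups than all probe sets, so these shares do not compare like sets.

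Neuron markers also stood lower than in intact arteries, 18 of 19 at 3 d after 3VO (median -0.75), 16 of 19 at 24 h after 3VO (median -0.40) and 19 of 19 in both sham groups (medians -1.13 at 24 h and -1.12 at 3 d). Of the 9 choroid plexus markers 7 stood lower in sham at 24 h (median -1.56), 7 in sham at 3 d (median -0.38), 8 in 3VO at 24 h (median -1.98) and 6 in 3VO at 3 d (median -1.14). Macrophage markers stood higher than in intact arteries, 13 of 13 in 3VO at 24 h (median 0.85), where Gpnmb, C1qb, Fcgr2b and C1qc passed, and 13 of 13 in 3VO at 3 d (median 0.65), where Gpnmb and Fcgr2b passed. In sham they stood higher in 13 of 13 at 24 h (median 0.48) and 11 of 13 at 3 d (median 0.18), with none passing. Their summed signal was 150549 to 273280 on intact arrays, 220994 to 309746 and 200632 to 235322 in sham at 24 h and 3 d, and 309128 to 455326 and 264057 to 335235 in 3VO at the same times. Of 10 endothelial markers 10 stood higher in each sham group (medians 0.65 at 24 h and 0.47 at 3 d), 9 in 3VO at 24 h (median 0.37) and 8 in 3VO at 3 d (median 0.33). Of 12 smooth muscle markers 12 stood higher in sham at 24 h (median 0.43) and 11 in sham at 3 d (median 0.27). In 3VO 10 stood lower at 24 h (median -0.30) and 9 at 3 d (median -0.18). Of 12 astrocyte markers 10 stood lower in each sham group (medians -0.72 at 24 h and -0.26 at 3 d). In 3VO 7 stood lower at 24 h (median -0.08) and 8 at 3 d (median -0.23). All 5 erythroid markers stood higher in each sham group (medians 0.58 at 24 h and 0.69 at 3 d). In 3VO 4 stood higher at 24 h (median 0.24) and 4 lower at 3 d (median -0.25). Skeletal muscle markers stood lower in 10 of 12 in sham at 24 h (median -0.62) and 9 at 3 d (median -0.19). In 3VO 11 stood lower at 24 h (median -0.74) and 9 at 3 d (median -0.41). The part of macrophages, endothelium, smooth muscle, astrocytes, erythroid cells and skeletal muscle in the members' values was not tested. The median of the members at 3 d after 3VO was -0.21 when the neuron list entered as a covariate and -0.20 when the choroid plexus list was added. It was -0.24 without intact array 2 and 3 d sham array 3. With array number as a covariate it was -0.14, and those of sham at 24 h, sham at 3 d and 3VO at 24 h were -0.01, -0.05 and -0.02. Without 24 h 3VO array 3 the median of 3VO at 24 h was -0.20, and without intact array 2 and 3 d sham array 3 that of sham at 3 d was -0.21. In such pooled tissue, fewer cells of a type and less RNA per cell cannot be told apart.

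Between the time points, 59 members stood lower and 26 higher at 3 d than at 24 h after 3VO (median -0.09, against 0.05 over all probe sets), and 45 and 40 after sham surgery (median -0.01, against 0.03). None passed in either, nor did any probe set (0%), and the smallest adjusted p was 0.684 and 0.867, for Ndufb2 both times. At an unadjusted p under 0.05, 6 members were lower and 1 higher after 3VO, against 1.93% and 3.84% of all probe sets. After sham surgery 2 were lower and 3 higher, against 1.87% and 3.78%. The median after 3VO was -0.01 without 24 h 3VO array 3, -0.04 without 3 d 3VO array 1, -0.05 with quantile normalization and -0.14 with median centring. After sham surgery it was -0.09 with median centring, 0.04 with quantile normalization, 0.04 without 24 h sham array 1, 0.02 without 3 d sham array 2, and -0.02 or -0.04 without any 1 of 24 h sham arrays 2 and 3 and 3 d sham array 3. In the test of any difference among the 5 groups 13 members (15.3%) had an unadjusted p under 0.05, against 12.1% of all probe sets. None passed, where 0.0763% did, and the smallest adjusted p was 0.16, for Ndufb2.

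**Figure D2:**
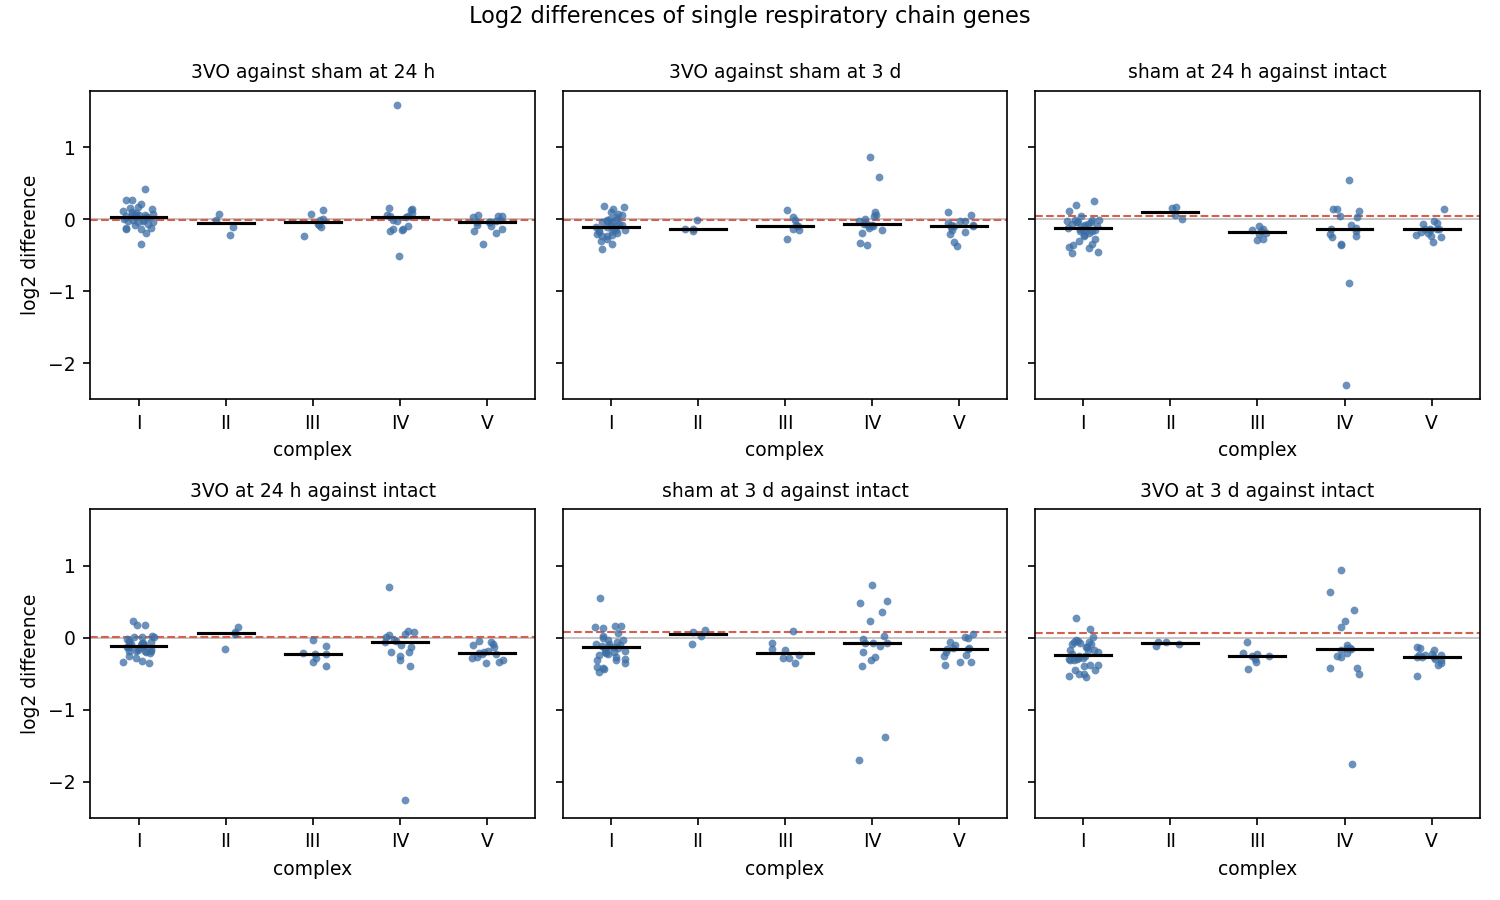
Log2 difference of each member (points, vertical axis) by complex in 6 comparisons, with the median of the complex (black line) and the median of all probe sets tested (dashed line). Complexes I, III, IV and V lie below the dashed line in all 4 comparisons with intact arteries. Complex II lies above it at 24 h after sham (0.11) and 3VO (0.07). At 3 d it lies below the line after sham (0.05) and 3VO (-0.08).

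Complex I takes electrons from NADH through a peripheral arm and pumps protons in a membrane arm. Of its 34 members, 31 stood lower at 3 d after 3VO than in intact arteries (median -0.24), 14 of them at an unadjusted p under 0.05, where 43.0% of all probe sets stood lower and 4.59% did so at that p. Against sham at 3 d 25 stood lower (median -0.10), and at 24 h 15 (median 0.03). Its leading member was Ndufb2, an accessory subunit of the membrane arm, whose promoter is shown because no other member had a smaller p over the 5 groups. RefSeq places it at chr4:69334057-69334356 on the forward strand of GRCr8, from 250 bases before to 50 after the start, and in this and the other promoters shown, capitals mark matches to the NRF-1, ETS or YY1 motifs described below. Ndufb2 and Ndufs3 have none.
Ndufb2: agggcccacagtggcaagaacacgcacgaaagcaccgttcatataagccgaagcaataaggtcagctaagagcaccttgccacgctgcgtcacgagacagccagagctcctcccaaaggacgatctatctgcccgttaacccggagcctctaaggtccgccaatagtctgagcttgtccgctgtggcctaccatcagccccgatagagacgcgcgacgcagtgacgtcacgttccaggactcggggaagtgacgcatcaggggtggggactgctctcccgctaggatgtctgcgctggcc
Signals of Ndufb2 were 25204, 19536 and 25988 in intact arteries, 23073, 23625 and 22453 in sham at 24 h, 21794, 22788 and 26077 in 3VO at 24 h, 16418, 16536 and 18829 in sham at 3 d and 16982, 16616 and 17802 in 3VO at 3 d. All 6 arrays at 3 d lay below all 9 others, with sham and 3VO alike in their range. The log2 difference of 3VO at 3 d from 3VO at 24 h was -0.46 (SE 0.12, adjusted p = 0.684 with limma), and that of sham at 3 d from sham at 24 h -0.42 (SE 0.12, adjusted p = 0.867). Against sham, 3VO differed by -0.01 at 3 d, with a 95% interval from -0.27 to 0.25.

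Ndufs3, a core subunit of the peripheral arm, had the smallest p of the members between 3VO and sham at 3 d. Its promoter lies at chr3:97339605-97339904 on the reverse strand.
Ndufs3: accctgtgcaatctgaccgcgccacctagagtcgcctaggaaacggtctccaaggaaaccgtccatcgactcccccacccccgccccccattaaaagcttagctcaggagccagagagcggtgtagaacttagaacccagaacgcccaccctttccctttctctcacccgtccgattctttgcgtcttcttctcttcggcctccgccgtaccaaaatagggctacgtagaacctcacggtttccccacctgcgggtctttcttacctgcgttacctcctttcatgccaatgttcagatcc
Its signals were 15624, 13338 and 15679 in intact arteries, 14936, 12372 and 12900 in sham at 24 h, 12715, 13526 and 14559 in 3VO at 24 h, 13369, 10986 and 14733 in sham at 3 d and 9826, 10052 and 10624 in 3VO at 3 d. The 3 arrays of 3VO at 3 d lay below all 12 others. The log2 difference from sham at 3 d was -0.35 (SE 0.13, adjusted p = 0.998 with limma), and from intact arteries -0.55 (SE 0.13, 95% interval -0.82 to -0.27, adjusted p = 0.107). At 24 h 3VO differed from sham by 0.02.

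Ndufs6, an accessory subunit of the peripheral arm, stood higher in intact arteries than in all operated ones. Its promoter, at chr1:31797150-31797449 on the forward strand, has an NRF-1 match and a YY1 match.
Ndufs6: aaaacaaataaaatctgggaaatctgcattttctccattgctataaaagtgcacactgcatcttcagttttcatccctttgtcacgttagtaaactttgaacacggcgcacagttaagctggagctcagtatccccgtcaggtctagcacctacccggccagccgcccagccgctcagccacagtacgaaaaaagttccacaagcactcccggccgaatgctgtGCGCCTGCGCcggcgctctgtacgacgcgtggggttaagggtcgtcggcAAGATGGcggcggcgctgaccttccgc
Its signals were 28983, 28608 and 29700 in intact arteries, 20650, 20866 and 21287 in sham at 24 h, 21724, 23146 and 25146 in 3VO at 24 h, 21892, 21138 and 28374 in sham at 3 d and 21945, 20419 and 24683 in 3VO at 3 d. The intact arrays lay above all 12 others, and the nearest of these was 3 d sham array 3, which was also high in choroid plexus markers. The log2 difference of sham at 24 h from intact was -0.47 (SE 0.12, adjusted p = 0.135 with limma). At 24 h all 3VO arrays lay above all sham arrays, with a log2 difference of 0.15 on the log2 scale (SE 0.12, adjusted p = 0.863).

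Ndufv1, which binds the flavin that accepts electrons from NADH, had signals of 24029, 25361 and 23292 in intact arteries, 18603, 19858 and 18393 in sham at 24 h, 23870, 19067 and 21518 in 3VO at 24 h, 19292, 17986 and 25927 in sham at 3 d and 16429, 18221 and 21797 in 3VO at 3 d. Sham at 24 h and 3VO at 3 d lay below all intact arrays, and the other groups overlapped them. The differences from intact were -0.35 (SE 0.14, adjusted p = 0.269) for sham at 24 h and -0.37 (SE 0.14, adjusted p = 0.307) for 3VO at 3 d with limma. Ndufs1, an iron-sulfur core subunit, had signals of 14338, 10940 and 10559 in intact arteries, 10403, 9743 and 11539 in sham at 24 h, 11819, 9470 and 10022 in 3VO at 24 h, 10505, 10852 and 10890 in sham at 3 d and 9733, 10777 and 11903 in 3VO at 3 d. Every operated group overlapped the intact arrays, and 3VO at 3 d differed from intact by -0.14 (SE 0.14, adjusted p = 0.715).

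Of the accessory subunits, Ndufa12 had signals of 24443, 27290 and 29057 in intact arteries, 27439, 23707 and 24669 in sham at 24 h, 22311, 22048 and 21780 in 3VO at 24 h, 26780, 26982 and 36723 in sham at 3 d and 25003, 24371 and 26646 in 3VO at 3 d. At both times every 3VO array lay below every sham array. The differences with limma were -0.19 (SE 0.13, adjusted p = 0.817) at 24 h and -0.24 (SE 0.13, adjusted p = 0.999) at 3 d. Ndufa9, near the junction of both arms, had signals of 17660, 15766 and 17013 in intact arteries, 15602, 14884 and 14734 in sham at 24 h, 15835, 16172 and 16428 in 3VO at 24 h, 14057, 12340 and 14187 in sham at 3 d and 11282, 15058 and 14651 in 3VO at 3 d. It lay higher on all 3VO arrays than on all sham arrays at 24 h, with a log2 difference of 0.10 (SE 0.12, adjusted p = 0.917), and overlapped at 3 d.

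A probe set outside the members passed the test, and it is described because of that result, known before it was chosen. It is annotated to Ndufa10, an accessory subunit, and to Ndufa10l1 together, so it belongs to no single gene and was not a member. Its signals were 9226, 10447 and 8356 in intact arteries, 7621, 6982 and 7188 in sham at 24 h, 5577, 6591 and 6455 in 3VO at 24 h, 7096, 6054 and 7744 in sham at 3 d and 5461, 4687 and 5820 in 3VO at 3 d. At both times the 3VO arrays lay below all sham arrays, and these below all intact ones. Between intact arteries and 3VO at 3 d it fell by 0.81 on the log2 scale (SE 0.14, fold 0.571, adjusted p = 0.0321 with limma). Against sham the differences were -0.23 at 24 h (SE 0.14, adjusted p = 0.796) and -0.39 at 3 d (SE 0.14, adjusted p = 0.969). The call against intact was held in 14 of 28 alternatives (adjusted p from 0.0158 to 0.363). It was lost without any 1 of the 3 arrays of 3VO at 3 d (0.0616 to 0.192), without intact array 1 (0.0913) or 2 (0.081), without sham array 2 (0.0575) or 3 (0.0562) at 24 h, with the neuron covariate (0.106) and with array number (0.174). It was also lost with neuron and choroid plexus covariates (0.171), without intact array 2 and 3 d sham array 3 together (0.0886), with median centring (0.0524), without a variance trend (0.0859) and with only the 2 groups compared (0.363). The other 6 probe sets shared between a member symbol and another gene did not pass, and of all 7, 6 stood lower at 3 d after 3VO than in intact arteries.

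**Figure D3:**
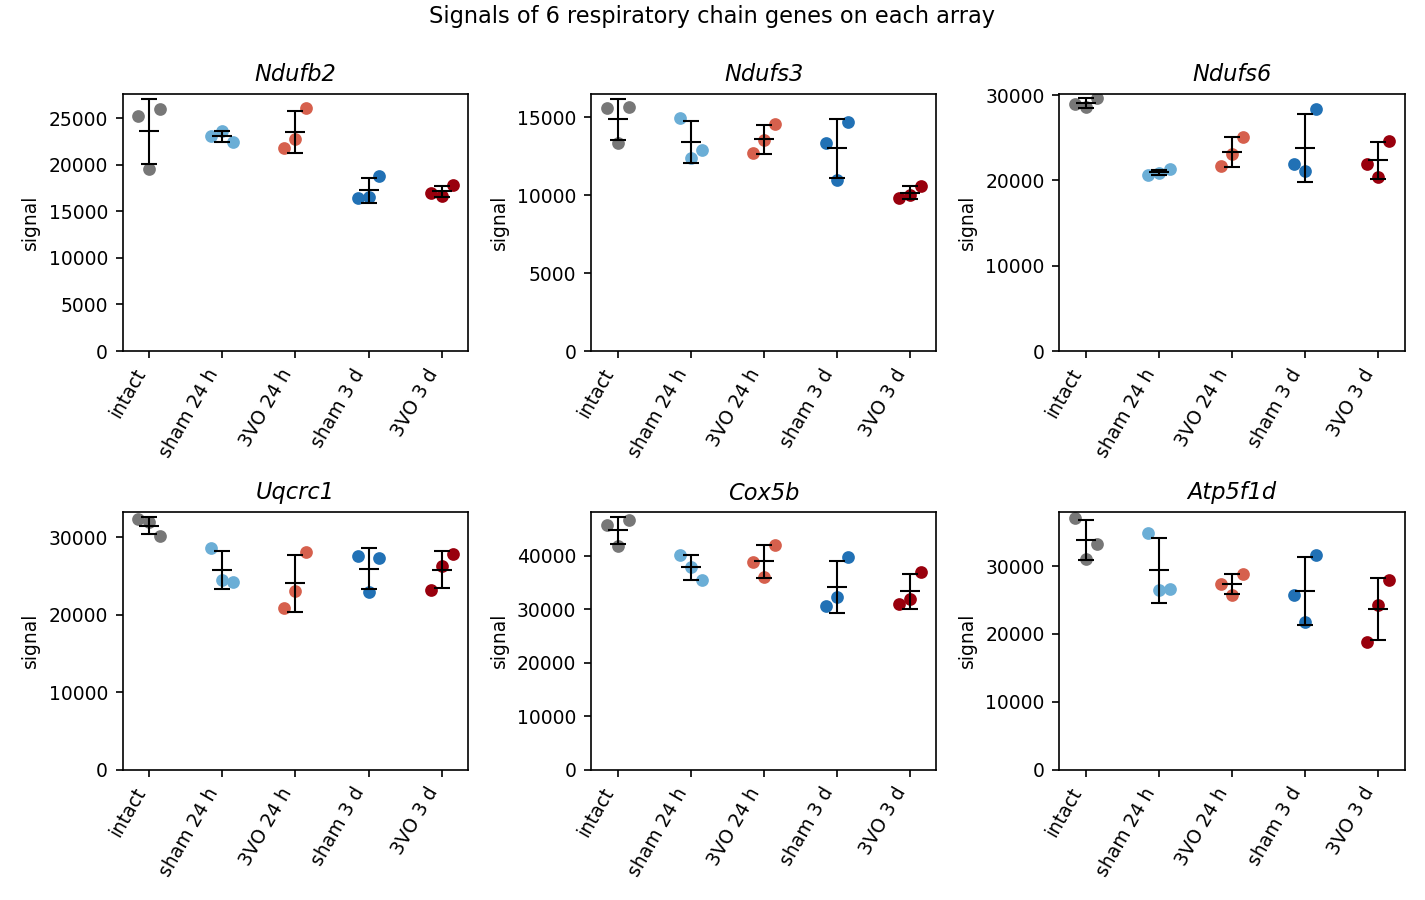
Signals (linear axis from 0) of Ndufb2, Ndufs3, Ndufs6, Uqcrc1, Cox5b and Atp5f1d on each of 15 arrays. Points are arrays, and bars give the mean and SD of 3 arrays. Ndufb2 is low on the 6 arrays at 3 d, Ndufs3 on the 3 arrays of 3VO at 3 d, and Ndufs6 is high on the 3 intact arrays.

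Complex II, succinate dehydrogenase, is also an enzyme of the tricarboxylic acid cycle. Of its 4 genes 3 stood above intact levels at 24 h, both after sham (median 0.11) and after 3VO (median 0.07). All 4 stood lower after 3VO than after sham at 3 d, with a median of -0.14 and none at an unadjusted p under 0.05. Sdhc, a membrane anchor, had signals of 34652, 42274 and 40861 in intact arteries, 39209, 40872 and 42003 in sham at 24 h, 34298, 34079 and 36602 in 3VO at 24 h, 44069, 43040 and 39218 in sham at 3 d and 37806, 36821 and 37560 in 3VO at 3 d. The 3VO arrays lay below the sham arrays at both times, with a log2 difference of -0.22 (SE 0.11, adjusted p = 0.736) at 24 h and -0.17 (SE 0.11, adjusted p = 0.999) at 3 d with limma. Sdhd, the other anchor, had signals of 23829, 20768 and 24451 in intact arteries, 26211, 25544 and 25733 in sham at 24 h, 24742, 23307 and 23660 in 3VO at 24 h, 22929, 22861 and 26874 in sham at 3 d and 20339, 23590 and 22094 in 3VO at 3 d. Sham at 24 h lay above intact and above 3VO without overlap, and 3VO differed from sham by -0.11 (SE 0.11, adjusted p = 0.889).

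Sdha, the flavoprotein that oxidises succinate, had signals of 37786, 31595 and 30049 in intact arteries, 40205, 35860 and 34456 in sham at 24 h, 35755, 36181 and 37915 in 3VO at 24 h, 32462, 33229 and 34701 in sham at 3 d and 26221, 35043 and 30448 in 3VO at 3 d. Each operated group overlapped the intact arrays, while 3VO at 24 h lay above 3VO at 3 d, which differed from it by -0.27 (SE 0.13, adjusted p = 0.845). Sdhb, the iron-sulfur subunit, had signals of 23970, 18612 and 26169 in intact arteries, 23666, 21444 and 22950 in sham at 24 h, 24097, 23936 and 23649 in 3VO at 24 h, 21613, 20841 and 21870 in sham at 3 d and 18556, 22462 and 23000 in 3VO at 3 d. All groups overlapped the intact arrays here too, with a difference of 3VO at 3 d from intact of -0.09 (SE 0.13, adjusted p = 0.788).

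Complex III passes electrons from ubiquinol to cytochrome c. All 8 members stood lower than in intact arteries in sham at 24 h (median -0.18) and in 3VO at 24 h (median -0.23) and 3 d (median -0.25), and 7 in sham at 3 d (median -0.21). Between 3VO and sham the medians were -0.04 at 24 h and -0.09 at 3 d. Uqcrc1, a core protein on the matrix side, led the complex, and its promoter at chr8:118467973-118468272 on the forward strand has an NRF-1 match and a YY1 match across the start.
Uqcrc1: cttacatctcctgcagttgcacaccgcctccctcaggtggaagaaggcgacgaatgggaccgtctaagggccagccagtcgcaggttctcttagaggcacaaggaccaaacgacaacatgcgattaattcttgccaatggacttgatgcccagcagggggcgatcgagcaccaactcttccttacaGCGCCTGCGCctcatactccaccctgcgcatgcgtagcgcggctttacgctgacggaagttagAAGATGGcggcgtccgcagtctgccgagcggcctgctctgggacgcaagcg
Its signals were 32367, 31898 and 30205 in intact arteries, 28588, 24467 and 24224 in sham at 24 h, 20883, 23099 and 28111 in 3VO at 24 h, 27608, 22918 and 27273 in sham at 3 d and 23176, 26260 and 27868 in 3VO at 3 d. All 12 arrays of operated rats lay below the 3 intact ones, with no separation of 3VO from sham. The difference of 3VO at 24 h from intact was -0.40 (SE 0.13, adjusted p = 0.312).

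Uqcr11, a small subunit, had signals of 36068, 41039 and 38062 in intact arteries, 33699, 35762 and 31534 in sham at 24 h, 36151, 30698 and 39468 in 3VO at 24 h, 30610, 30935 and 32781 in sham at 3 d and 32529, 30415 and 33877 in 3VO at 3 d. Both sham groups and 3VO at 3 d lay below all intact arrays, and sham at 3 d differed by -0.29 (SE 0.11, adjusted p = 0.287). Uqcrq, which lies beside cytochrome b, had signals of 27680, 31730 and 36181 in intact arteries, 29344, 29497 and 27966 in sham at 24 h, 25217, 28081 and 29076 in 3VO at 24 h, 33370, 30122 and 38117 in sham at 3 d and 29577, 32766 and 29276 in 3VO at 3 d. No operated group was clear of the intact arrays, and 3VO at 24 h differed from intact by -0.21 (SE 0.12, adjusted p = 0.594).

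Uqcrfs1, the Rieske iron-sulfur protein, had signals of 38558, 29706 and 41142 in intact arteries, 35917, 29015 and 29108 in sham at 24 h, 29832, 27348 and 36190 in 3VO at 24 h, 31349, 25187 and 28762 in sham at 3 d and 27117, 31412 and 34335 in 3VO at 3 d. Each operated group overlapped the intact arrays, and sham at 3 d differed from them by -0.35 (SE 0.16, adjusted p = 0.334). Cyc1, cytochrome c1, had signals of 25137, 27253 and 24287 in intact arteries, 23485, 19770 and 29531 in sham at 24 h, 19111, 18337 and 23728 in 3VO at 24 h, 19481, 22507 and 22856 in sham at 3 d and 16392, 19431 and 25639 in 3VO at 3 d. Sham at 3 d and 3VO at 24 h lay below all intact arrays, while 3VO at 3 d overlapped them and differed by -0.34 (SE 0.17, adjusted p = 0.422).

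Complex IV, cytochrome c oxidase, reduces oxygen. At 3 d after 3VO 12 of its 17 members stood lower than in intact arteries (median -0.16) and 5 higher. Cox5b, a subunit on the matrix side that binds zinc, had the smallest p over the 5 groups among its widespread subunits, and its promoter at chr9:46417587-46417886 on the forward strand has an ETS match.
Cox5b: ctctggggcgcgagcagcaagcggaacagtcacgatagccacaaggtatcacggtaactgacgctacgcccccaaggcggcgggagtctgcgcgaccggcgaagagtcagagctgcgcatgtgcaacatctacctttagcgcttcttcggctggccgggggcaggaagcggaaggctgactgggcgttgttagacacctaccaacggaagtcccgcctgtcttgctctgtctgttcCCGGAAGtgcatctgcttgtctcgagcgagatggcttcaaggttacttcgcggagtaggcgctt
Its signals were 45755, 41892 and 46675 in intact arteries, 40180, 37979 and 35518 in sham at 24 h, 38875, 35965 and 42044 in 3VO at 24 h, 30532, 32229 and 39732 in sham at 3 d and 31058, 31956 and 37039 in 3VO at 3 d. Sham at 24 h and both groups at 3 d lay below all intact arrays, and 3VO at 24 h overlapped them. The groups at 3 d lay close to each other. Their differences from intact with limma were -0.40 in sham (SE 0.12, adjusted p = 0.206) and -0.43 in 3VO (SE 0.12, adjusted p = 0.185). At 3 d 3VO differed from sham by -0.03.

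Cox5a, the partner of Cox5b on the matrix side, was measured by a dim probe set of its own, with signals of 1486, 1993 and 1576 in intact arteries, 1313, 1931 and 2344 in sham at 24 h, 1888, 2116 and 1420 in 3VO at 24 h, 3007, 2132 and 3340 in sham at 3 d and 2700, 2554 and 2544 in 3VO at 3 d. Both groups at 3 d lay above all intact arrays, with a log2 difference of 0.73 (SE 0.26, adjusted p = 0.253) in sham and 0.63 (SE 0.26, adjusted p = 0.327) in 3VO. Another probe set, annotated to Cox5a and LOC100361008 together and so not a member, had signals of 54141, 33934 and 45810 in intact arteries, 39542, 34337 and 29922 in sham at 24 h, 38517, 37724 and 46657 in 3VO at 24 h, 34664, 33803 and 34964 in sham at 3 d and 30427, 37384 and 36082 in 3VO at 3 d. It stood lower in both groups at 3 d, with overlap and log2 differences from intact of -0.35 (SE 0.16, adjusted p = 0.356) in sham and -0.35 (SE 0.16, adjusted p = 0.391) in 3VO, the opposite direction from the member probe set. Cox7b, a small subunit of the membrane, had signals of 63044, 46918 and 61408 in intact arteries, 63776, 51470 and 42712 in sham at 24 h, 43967, 41440 and 57918 in 3VO at 24 h, 53978, 57667 and 49459 in sham at 3 d and 40275, 42880 and 44239 in 3VO at 3 d. At 3 d all 3VO arrays lay below all sham arrays, with a log2 difference of -0.34 (SE 0.17, adjusted p = 0.999) with limma, and below all intact arrays.

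Subunit 4 has a pair of isoforms. Cox4i1 is the widespread form and Cox4i2 a form of lung that is known to respond to oxygen. Signals of Cox4i2 were 2616, 3285 and 3436 in intact arteries, 4418, 4171 and 4978 in sham at 24 h, 3184, 3416 and 2893 in 3VO at 24 h, 3291, 4349 and 3332 in sham at 3 d and 3784, 3440 and 3645 in 3VO at 3 d. Sham at 24 h stood above intact and above 3VO with no overlap. Its log2 difference from intact was 0.54 (SE 0.17, adjusted p = 0.172), and 3VO differed from sham by -0.51 at 24 h (SE 0.17, adjusted p = 0.518) and by -0.00 at 3 d. All 12 smooth muscle markers also stood lower in 3VO than in sham at 24 h (median -0.68), and its part in the Cox4i2 values was not tested. Cox4i1 had signals of 91368, 81611 and 92925 in intact arteries, 82857, 78452 and 69192 in sham at 24 h, 89660, 78054 and 87301 in 3VO at 24 h, 78093, 78441 and 89489 in sham at 3 d and 61950, 81734 and 80068 in 3VO at 3 d. All groups overlapped the intact arrays, and 3VO differed from sham by 0.15 (SE 0.14, adjusted p = 0.889) at 24 h, with a 95% interval from -0.15 to 0.45.

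Isoforms of striated muscle varied more between arrays of a group. Cox6a2 had signals of 1329, 1395 and 1972 in intact arteries, 1088, 1635 and 311 in sham at 24 h, 2930, 2320 and 2362 in 3VO at 24 h, 2911, 1509 and 2416 in sham at 3 d and 3015, 1367 and 1219 in 3VO at 3 d. At 24 h all 3VO arrays lay above all sham arrays, with a log2 difference of 1.59 (SE 0.50, adjusted p = 0.505). Without the sham array at 311 the difference was 0.91 (adjusted p = 0.999 with limma).

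Cox6a1, its widespread counterpart, had signals of 42888, 46375 and 44773 in intact arteries, 39190, 35448 and 30438 in sham at 24 h, 34424, 35867 and 47720 in 3VO at 24 h, 35921, 35533 and 36889 in sham at 3 d and 33383, 38271 and 39919 in 3VO at 3 d. Both sham groups and 3VO at 3 d lay below all intact arrays, with a log2 difference of -0.36 (SE 0.14, adjusted p = 0.244) in sham at 24 h. Cox7a1, the form of subunit 7a in heart and skeletal muscle, had signals of 1151, 1390 and 1908 in intact arteries, 912, 1396 and 1463 in sham at 24 h, 928, 1492 and 969 in 3VO at 24 h, 383, 801 and 540 in sham at 3 d and 1196, 1276 and 688 in 3VO at 3 d. Sham at 3 d lay below all intact arrays, with a log2 difference of -1.37 (SE 0.37, adjusted p = 0.175), while 3VO at 3 d overlapped both groups. Without 3 d sham array 1, whose text describes the occlusion, that difference was -1.12 (adjusted p = 0.315 with limma). Between 3VO and sham at 3 d Cox7a1 differed by 0.87, the highest value of the members, and did not pass. Cox7a2l, a related protein that joins complexes III and IV, had signals of 27312, 24270 and 29858 in intact arteries, 29559, 21225 and 23903 in sham at 24 h, 24759, 24269 and 29522 in 3VO at 24 h, 25906, 21328 and 23346 in sham at 3 d and 24140, 25198 and 26323 in 3VO at 3 d. No operated group was clear of the intact arrays.

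Cox8b, the striated muscle form of subunit 8, had signals of 77, 8014 and 292 in intact arteries, 97, 97 and 132 in sham at 24 h, 107, 167 and 78 in 3VO at 24 h, 66, 100 and 695 in sham at 3 d and 118, 159 and 237 in 3VO at 3 d. Intact array 2 stood far above the rest, and the next highest was 3 d sham array 3. Of 12 skeletal muscle markers measured, Acta1 (skeletal actin) was at 12723 and Ckm (muscle creatine kinase) at 8412 on intact array 2. On 3 d sham array 3 they were at 4047 and 5693. On the 13 other arrays Acta1 was 1035 to 2748 and Ckm 1908 to 3292. Myh2, a muscle myosin, was at 1832 on intact array 2 but at 108 on 3 d sham array 3. The mean log2 of the list, relative to each gene's mean, was highest on these arrays (1.906 and 0.581). Its summed signal was 74800 and 92099 on them and highest on 3 d sham array 1 (125658). The mean log2 of the choroid plexus list was also highest on intact array 2 (2.516) and 3 d sham array 3 (2.351). The parts of muscle and choroid plexus in the Cox8b values were not tested. Cox8a, the widespread form, had signals of 80896, 96830 and 97153 in intact arteries, 101028, 89162 and 89697 in sham at 24 h, 78799, 80190 and 91080 in 3VO at 24 h, 97240, 81830 and 100228 in sham at 3 d and 78038, 86154 and 79921 in 3VO at 3 d. Each operated group overlapped the intact arrays, and 3VO differed from sham by -0.19 (SE 0.13, adjusted p = 0.999) at 3 d.

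Subunit 6b has a testis form, Cox6b2, with signals of 1587, 1172 and 2234 in intact arteries, 2024, 1733 and 1611 in sham at 24 h, 1179, 1830 and 1953 in 3VO at 24 h, 2887, 2884 and 1063 in sham at 3 d and 2823, 4399 and 2430 in 3VO at 3 d. All arrays of 3VO at 3 d lay above all intact arrays, with a log2 difference of 0.95 (SE 0.38, adjusted p = 0.317), but overlapped sham at 3 d. Cox6b1, the widespread form, had signals of 42216, 44486 and 41714 in intact arteries, 47256, 40465 and 44846 in sham at 24 h, 42624, 43426 and 49421 in 3VO at 24 h, 39946, 38280 and 44240 in sham at 3 d and 34413, 39828 and 42767 in 3VO at 3 d. All groups overlapped the intact arrays. Ndufa4, a subunit first assigned to complex I, had signals of 53354, 52654 and 41406 in intact arteries, 44924, 47217 and 46055 in sham at 24 h, 49067, 44548 and 43230 in 3VO at 24 h, 38944, 36491 and 46194 in sham at 3 d and 37565, 44394 and 44448 in 3VO at 3 d. Its relative Ndufa4l2, known to respond to hypoxia, had signals of 968, 1762 and 1634 in intact arteries, 894, 949 and 1571 in sham at 24 h, 992, 1213 and 1200 in 3VO at 24 h, 1837, 1122 and 3682 in sham at 3 d and 3047, 1767 and 1169 in 3VO at 3 d. Neither separated 3VO from sham at either time, with differences for Ndufa4l2 of 0.04 (SE 0.43, adjusted p = 0.996) and -0.09 (SE 0.43, adjusted p = 0.999).

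**Figure D4:**
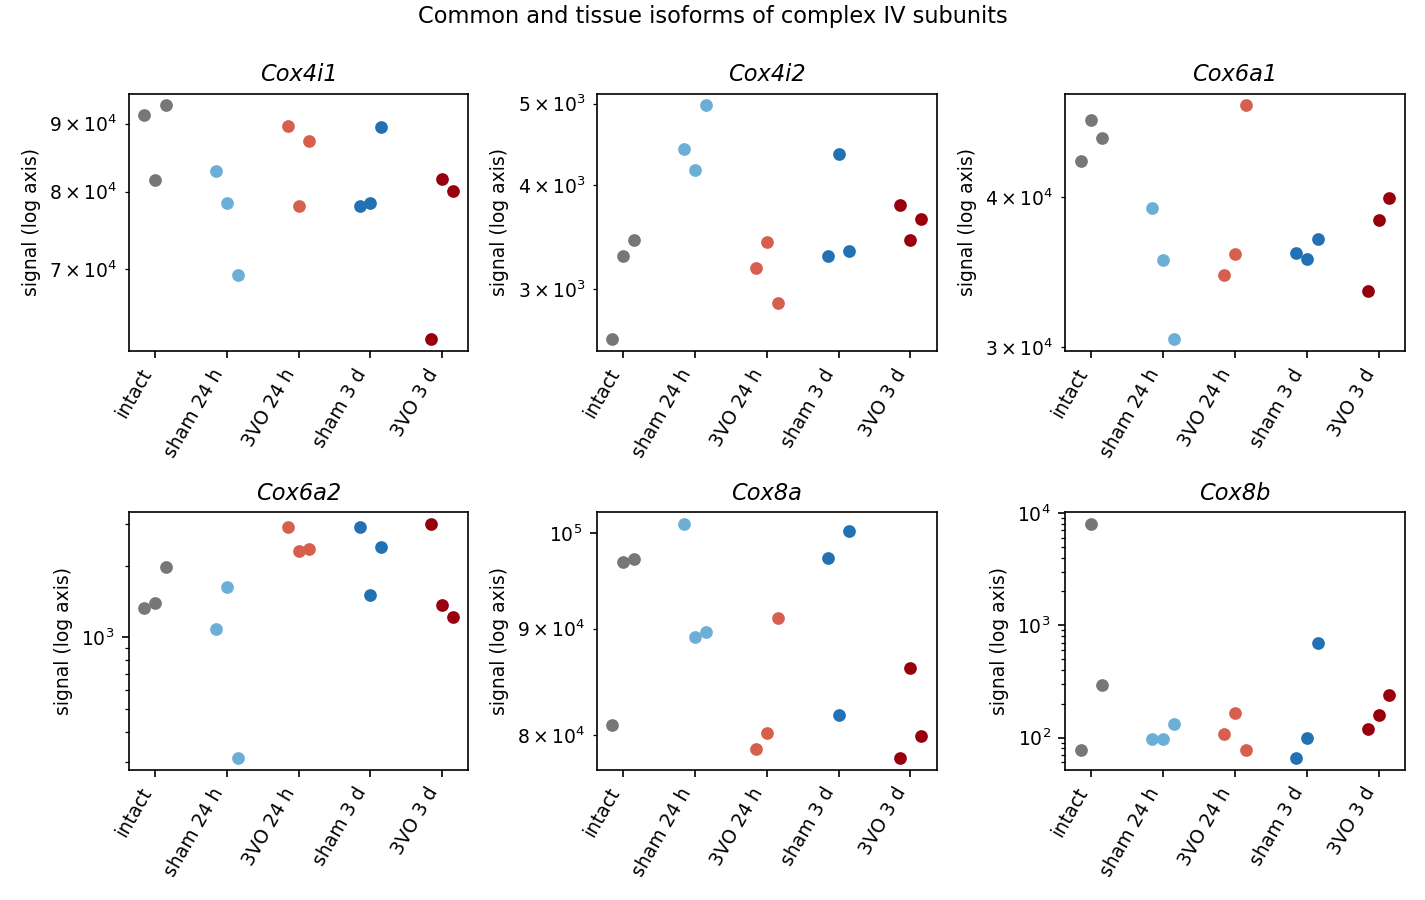
Signals (log axis) of widespread (Cox4i1, Cox6a1, Cox8a) and tissue (Cox4i2, Cox6a2, Cox8b) isoforms of complex IV on each of 15 arrays. Axes differ between panels. Cox8b stands at 8014 on 1 intact array, Cox6a2 at 311 on 1 sham array at 24 h, and Cox4i2 is at 4171 to 4978 on the 3 sham arrays at 24 h.

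Complex V makes ATP with a membrane ring, a rotating stalk and a catalytic head. All 15 members stood lower than in intact arteries at 24 h after 3VO (median -0.22) and at 3 d (median -0.26), 14 stood lower in sham at 24 h (median -0.14) and 13 in sham at 3 d (median -0.15). Against sham, 13 stood lower in 3VO at 3 d (median -0.10) and 11 at 24 h (median -0.04). Atp5f1d, the delta subunit of the rotating stalk, had signals of 37089, 31139 and 33340 in intact arteries, 34877, 26554 and 26681 in sham at 24 h, 27441, 25806 and 28879 in 3VO at 24 h, 25686, 21734 and 31697 in sham at 3 d and 18833, 24218 and 28036 in 3VO at 3 d. Both 3VO groups lay below all intact arrays, and both sham groups overlapped them. The difference of 3VO at 3 d from intact was -0.53 (SE 0.17, adjusted p = 0.209). Atp5f1e, the epsilon subunit of the stalk, had signals of 38597, 48869 and 54872 in intact arteries, 42100, 38665 and 38366 in sham at 24 h, 38262, 36628 and 41070 in 3VO at 24 h, 55483, 42814 and 48489 in sham at 3 d and 38231, 42407 and 36336 in 3VO at 3 d. At 3 d all 3VO arrays lay below all sham arrays, with a log2 difference of -0.32 (SE 0.14, adjusted p = 0.999).

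Atp5f1b, the catalytic beta subunit, had signals of 91317, 96378 and 90847 in intact arteries, 90944, 75582 and 86392 in sham at 24 h, 86987, 75339 and 77538 in 3VO at 24 h, 78844, 78077 and 97743 in sham at 3 d and 78734, 77215 and 78936 in 3VO at 3 d. Both 3VO groups lay below all intact arrays, and both sham groups overlapped them. The difference of 3VO at 3 d from intact was -0.25 (SE 0.13, adjusted p = 0.441), with a 95% interval from -0.52 to 0.03. Atp5f1a, the alpha subunit, had signals of 52283, 41834 and 52502 in intact arteries, 47824, 40181 and 45077 in sham at 24 h, 45798, 43194 and 48593 in 3VO at 24 h, 43234, 42756 and 44290 in sham at 3 d and 37064, 44838 and 41561 in 3VO at 3 d. No operated group was clear of the intact arrays, and 3VO at 3 d differed by -0.24 (SE 0.12, adjusted p = 0.422).

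Atp5mc3, a source of the membrane ring, had signals of 61640, 57338 and 61612 in intact arteries, 54614, 50682 and 52865 in sham at 24 h, 53638, 46145 and 54487 in 3VO at 24 h, 55225, 43526 and 54850 in sham at 3 d and 45890, 50606 and 54173 in 3VO at 3 d. All 12 arrays of operated rats lay below the 3 intact ones, with a log2 difference of -0.26 (SE 0.13, adjusted p = 0.391) in 3VO at 3 d. Atp5me, a small membrane subunit, had signals of 20382, 16926 and 23616 in intact arteries, 27470, 21406 and 18835 in sham at 24 h, 14126, 16470 and 23228 in 3VO at 24 h, 19514, 20775 and 19805 in sham at 3 d and 13052, 15062 and 18930 in 3VO at 3 d. At 3 d all 3VO arrays lay below all sham arrays, with a log2 difference of -0.37 (SE 0.20, adjusted p = 0.999), and at 24 h they overlapped.

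Atp5if1, which blocks ATP hydrolysis by the synthase when the membrane potential is lost, had signals of 14764, 12252 and 14560 in intact arteries, 13065, 14396 and 11998 in sham at 24 h, 14218, 15745 and 16070 in 3VO at 24 h, 11602, 12042 and 11748 in sham at 3 d and 12958, 11573 and 14805 in 3VO at 3 d. It stood higher in 3VO than in sham at 24 h with 1 overlapping pair of arrays, with a log2 difference of 0.22 (SE 0.12, adjusted p = 0.777) with limma. The 5 complex I assembly factors had medians of -0.06 at 24 h and -0.01 at 3 d between 3VO and sham. The pseudogene Cox6c-ps1 had signals of 1187, 1553 and 1196 in intact arteries, 815, 1416 and 1110 in sham at 24 h, 1687, 473 and 1005 in 3VO at 24 h, 1835, 1615 and 3148 in sham at 3 d and 798, 1597 and 1041 in 3VO at 3 d. At 3 d 3VO lay below sham without overlap, with a log2 difference of -0.93 (SE 0.43, adjusted p = 0.999).

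In all, 9 members (10.6%) had all 3 arrays of 3VO below all 3 of sham at 3 d, where 4.75% of all probe sets did. Beside Ndufs3, Ndufa12, Sdhc, Cox7b, Atp5f1e, Atp5me and Cox6c-ps1 these were the complex I subunits Ndufs4 and Ndufb3. None had all 3 above, where 4.34% did. At 24 h 4 members (4.71%) lay wholly below and 3 (3.53%) wholly above, where 9% and 6.42% of all probe sets did.

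Other mitochondrial genes were counted in 7 lists. None of their genes passed with limma in any of the 9 comparisons. Of 14 genes of the tricarboxylic acid cycle and pyruvate dehydrogenase, 13 stood lower at 3 d after 3VO than in intact arteries (median -0.23), 5 at an unadjusted p under 0.05. Among them were Pdhb of pyruvate dehydrogenase at -0.46 (SE 0.13, adjusted p = 0.177) and the malate dehydrogenase Mdh2 at -0.40 (SE 0.13, adjusted p = 0.221). Mitochondrial ribosomal proteins stood lower in 55 of 71 (median -0.10, 9 at an unadjusted p under 0.05), chaperone, antioxidant and import genes in 30 of 37 (median -0.08, 5) and carriers with cytochrome c in 14 of 22 (median -0.12, 2). Assembly factors stood lower in 19 of 31 (median -0.05, 2), regulators of mitochondrial biogenesis in 6 of 12 (median -0.03, 1) and genes of fatty acid oxidation in 7 of 16 (median 0.04, 1). Over all probe sets the median was 0.07, 43.0% stood lower and 4.59% were lower at an unadjusted p under 0.05. The mitochondrial chaperone Hspa9 stood at -0.63 (SE 0.21, adjusted p = 0.235), the ribosomal protein Mrpl28 at -0.66 (SE 0.18, adjusted p = 0.155) and Nfe2l2, which drives antioxidant genes, at 0.37 (SE 0.14, adjusted p = 0.287). Between 3VO and sham the list medians ran from -0.11 (fatty acid oxidation) to 0.10 (chaperones, antioxidants and import) at 24 h and from -0.08 (tricarboxylic acid cycle) to 0.03 at 3 d.

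Promoters from RefSeq (GRCr8) could be matched for 76 members. NRF-1, the ETS factor GABP and YY1 are known to act at many genes of the chain, and 3 motifs were searched on both strands in the 300 bases. The NRF-1 motif (GCGCA, any base, GCGC) was found in 15 member promoters (19.7%), against 8.5% of the 9466 promoters of genes on the array. The ETS core CCGGAAG was found in 21 (27.6%, against 14.9%), and the YY1 core AAGATGG in 20 (26.3%, against 7.87%). At least 1 of these lay in 45 (59.2%), against 27.0% of genes on the array. By complex they were 18 of 32 for I, 4 of 4 for II, 4 of 6 for III, 6 of 14 for IV and 10 of 14 for V. The GC box GGGCGG was in 32 (42.1%, against 58.6%) and the TATA box TATAAA in 8 (10.5%, against 8.83%). In the promoters printed above, Uqcrc1 has NRF-1 from -64 to -55 and YY1 from -1 to 5 around the start, Ndufs6 has NRF-1 from -26 to -17 and YY1 from 23 to 29, and Cox5b has ETS from -14 to -8. Ndufb2 and Ndufs3 have none of the 3. These are matches of letters, not measured sites.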

How the data were processed

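RNA pooled from posterior cerebral arteries was hybridised to 15 arrays. The deposited values are a linear signal (intensity), which the authors made in GCOS (a version not given in the sources used here) and scaled on each array, per the series' design text and the submitters' processing notes. The authors' scaling was kept. The design text names a global intensity of 500, but the trimmed mean of the deposited signals was 5000 on every array, so signals and signal limits here are on the deposited scale. The 57 control probe sets were left out. Names were taken from the platform's annotation, with RefSeq symbols where these are newer: 12783 probe sets had 1 gene, 312 several and 2771 none, and all 85 members matched RefSeq. The 7 probe sets that pair a member symbol with another gene were not members.

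Signals were turned into log2(signal + 16). A probe set was kept if 3 or more arrays reached 100, which left 15737, and limma 3.58.1 (R 4.3.3) was run on these. One model of 5 group means covered the 15 arrays (10 residual degrees of freedom, 4.83 prior degrees of freedom from eBayes with a variance trend), and 2-sided p-values were adjusted by Benjamini-Hochberg over all probe sets of a comparison. A log2 difference is a difference between group means of these values and understates changes of dim genes. The number of arrays limits the precision.

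The members and lists were chosen with earlier results of these data known. Each array's value is given for the 3 members of each complex with the smallest p over the 5 groups, for up to 4 members per direction without overlap between 3VO and sham at each time, and for isoforms and core subunits on a list. Alternatives covered the pseudocount, filter, normalization, variance model, covariates and leaving out each array. Tables and plots were made in Python 3.11.15.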

Additional observations from a re-analysis of the deposited data

How the results depend on the processing

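No member passed at an adjusted p under 0.05 (limma) in any of 10 comparisons under any of 29 alternative settings, 15 of which left out 1 array. The medians carry no test, and those of 3VO against sham at 24 h and of sham at 3 d against 24 h changed sign between settings. With array number as a covariate the median moved by more than the spread between arrays (SD 0.0819), to -0.009 for sham at 24 h, -0.0223 for 3VO at 24 h and -0.1445 for 3VO at 3 d, each against intact arteries. When 1 array was left out, the median of 3VO at 3 d against 3VO at 24 h ran from -0.1327 to -0.0086, that of 3VO at 3 d against intact from -0.2432 to -0.1564, that of 3VO against sham at 3 d from -0.1331 to -0.029 and that of 3VO against sham at 24 h from -0.0592 to 0.039. The causes were not tested. No paired analysis was possible because the array numbers in the titles are unique and no number is shared between groups. The alternatives without 2 arrays rich in choroid plexus markers and with 2 covariates were added after seeing the data. For 80 of 85 members the signal was 1000 or more on all arrays.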

Other observations

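Of the member genes, 4 have further probe sets, and these did not always point the same way. For Ndufv3, a flavoprotein subunit of complex I, the member probe set stood at 6133 to 7528 in 3VO and 6973 to 11322 in sham at 3 d, a log2 difference of -0.42 (SE 0.17, adjusted p = 0.999 with limma). Its second probe set stood at 1043 to 1485 and 861 to 1279, a difference of 0.35 (SE 0.27). Both probe sets of Sdhd stood lower in 3VO than in sham at 3 d, with log2 differences of -0.14 (SE 0.11) and -0.27 (SE 0.17). The second probe set of Atp5me, a small subunit of the ATP synthase, differed by -0.48 (SE 0.61), beside -0.37 (SE 0.20) for the member probe set. Both further probe sets of Atp5if1, the inhibitor of the synthase, stood lower in 3VO than in sham at 3 d, with log2 differences of -1.59 (SE 0.90) and -0.86 (SE 0.93, adjusted p = 0.999 each), while the member probe set stood higher at 0.15 (SE 0.12).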
